A study of Mus musculus with 6 samples.

Results

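Genes for costimulatory and checkpoint surface proteins were followed in mouse macrophages given medium of dying cartilage cells. The 10 genes were taken by symbol from the submitters' table of 52550 genes, where each symbol had a single row: Cd80, Cd86, Icosl, Cd274, Pdcd1lg2, Cd276, Vsir, Havcr2, Cd200r1 and Sirpa. The AC CM group held 3 samples of C57BL/6 bone marrow-derived macrophages treated with culture medium of apoptotic chondrocytes, and the C CM group held 3 such samples treated with culture medium of normal chondrocytes. Chondrocytes are the cells of cartilage. Both groups had been grown for 7 days with M-CSF, the macrophage growth factor, at 25 ng/ml, and RNA was measured by mRNA sequencing of bulk cells. The labels state neither the length of the exposure nor the sex and number of the animals. Whether replicates stand for different animals or cultures is not stated either, so p-values reflect only how far these samples differ, possibly for technical reasons.

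A T cell that recognises antigen on a macrophage also reads further surface proteins that raise or restrain its response. CD80 and CD86, members of the B7 family, bind the activating receptor CD28 and the inhibitory receptor CTLA4, while PD-L1 (Cd274) and PD-L2 (Pdcd1lg2) bind the inhibitory receptor PD-1. Other proteins of the set restrain the macrophage itself. CD200R1 is engaged by CD200 on neighbouring cells, and SIRP alpha (Sirpa) by CD47, the signal that holds back the uptake of living cells. TIM-3 (Havcr2) is reported to bind galectin-9, HMGB1, CEACAM1 and the phosphatidylserine that apoptotic cells expose.

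With AC CM, 3 of the 10 genes fell, 3 rose, 3 did not pass the test and 1 was too low to be tested. All 3 that fell encode proteins of the B7 family. Cd86 was 2.06-fold lower, Cd274 1.88-fold lower and Vsir 1.50-fold lower. The 3 that rose were the 3 receptors outside that family, with Havcr2 1.85-fold, Cd200r1 1.50-fold and Sirpa 1.32-fold higher. Calls are at a Benjamini-Hochberg adjusted p under 0.05 in edgeR's quasi-likelihood test over 17863 genes. By that test 26.5% of all genes changed, 13.3% higher and 13.3% lower, against 6 of the 9 genes of the set that could be tested. The background count was 4741 genes, against 3158 without AC CM replicate 3 and 1274 without both AC CM replicate 2 and AC CM replicate 3. The median log2 fold change of the 9 genes was 0.05, beside -0.0046 over all genes tested.

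**Figure D1:**
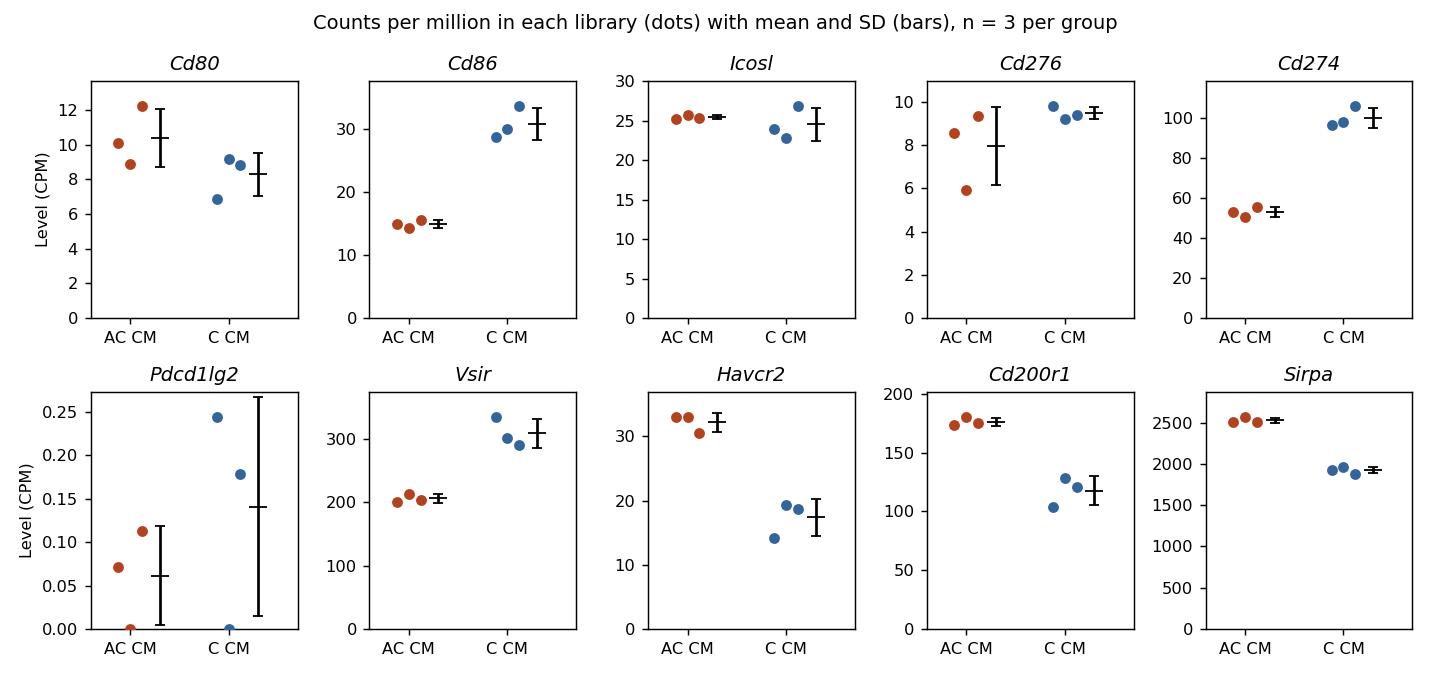
Level of each of the 10 genes in CPM (y axis) in the 3 AC CM libraries (left in each panel) and the 3 C CM libraries (right), with the mean and SD of n = 3 as a bar. The groups do not overlap for Cd86, Cd274, Vsir, Havcr2, Cd200r1 and Sirpa, and they do for Cd80, Icosl, Cd276 and Pdcd1lg2.

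The libraries held between 65630784 and 80105872 counts and differed in more than the medium. Levels are given as CPM, counts scaled to a common library size. Xist, the RNA that silences an X chromosome in female cells, was at 1347, 1441 and 1487 CPM in AC CM and at 0.564, 1.42 and 3.93 CPM in C CM. The Y-linked gene Ddx3y was at 36.8, 39.4 and 38.9 CPM in AC CM and at 76.2, 81.1 and 80.1 CPM in C CM. Every AC CM library thus held Xist beside Y-linked RNA, the latter at a lower level than in C CM. Whether the AC CM libraries mixed cells of both sexes was not tested. Since the levels of Xist and Y-linked RNA separate the same samples as the medium, the sex of the cells, or a mixture of sexes, and the medium cannot be told apart in this design. None of the 10 genes lies on X or Y. The albumin gene Alb, a hepatocyte marker, was at 38.1, 469 and 971 CPM in AC CM replicates 1, 2 and 3 and at 30.1, 1.32 and 0.254 CPM in C CM replicates 1, 2 and 3. The defining macrophage gene Adgre1 (F4/80) ranged from 1943 to 1997 CPM in AC CM and from 1995 to 2446 CPM in C CM, so the labelled cell type was borne out by its marker in every library.

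Cd86 (chromosome 16, 36603869 to 36666081, minus strand) was at 14.9, 14.2 and 15.5 CPM in AC CM replicates 1, 2 and 3 and at 28.7, 29.9 and 33.5 CPM in C CM replicates 1, 2 and 3. Every AC CM library lay below every C CM library. The gene fell by 1.04 on the log2 scale (SE 0.10, edgeR adjusted p = 1.15e-04). Cd80 (chromosome 16, 38458933 to 38486933, plus strand), which encodes the other ligand of CD28 and CTLA4, was at 10.1, 8.87 and 12.2 CPM in AC CM and at 6.86, 9.19 and 8.81 CPM in C CM. These groups overlapped, and the difference of 0.32 (log2, SE 0.17) did not pass (edgeR adjusted p = 0.189). It was 0.19 without AC CM replicate 3, 0.21 without C CM replicate 1 and 0.43 without AC CM replicate 2. Icosl (chromosome 10, 78069302 to 78083913), whose product engages ICOS on activated T cells, was at 25.2, 25.7 and 25.4 CPM in AC CM and at 24.0, 22.8 and 26.8 CPM in C CM. The AC CM values lay within the range of the C CM values, with a log2 difference of 0.05 (SE 0.09, edgeR adjusted p = 0.729), which was 0.00 without C CM replicate 2 and 0.12 without C CM replicate 3.

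The ratio of the CD28 ligands was taken within each library. There were 1.48, 1.60 and 1.28 Cd86 counts for each Cd80 count in AC CM, against 4.19, 3.25 and 3.80 in C CM. On the log2 scale the ratio averaged 0.53 ± 0.17 in AC CM and 1.90 ± 0.18 in C CM (SD, n = 3 each), a difference of -1.36. The groups did not overlap. The two-sided exact permutation test gave p = 0.1, which is the smallest value that 3 against 3 allows. This ratio does not depend on library scaling, since both counts come from the same library.

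**Figure D2:**
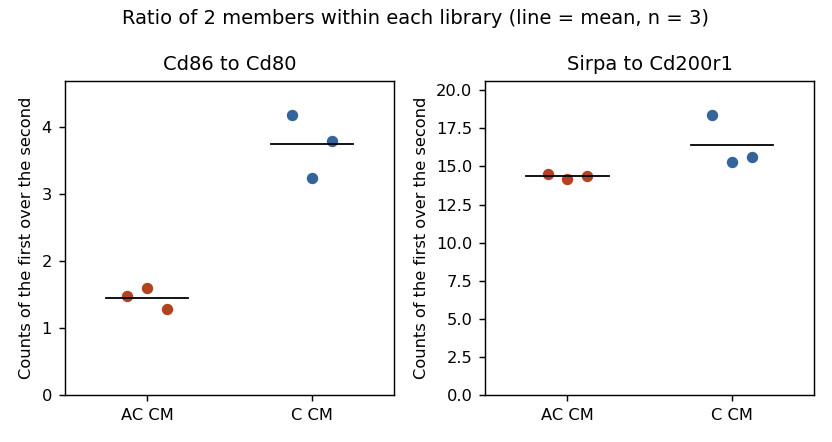
Counts of Cd86 per count of Cd80 (left) and of Sirpa per count of Cd200r1 (right) in the 3 AC CM and the 3 C CM libraries, with the group mean as a line. The Cd86 to Cd80 ratio lies between 1.28 and 1.60 in AC CM and between 3.25 and 4.19 in C CM, while the Sirpa to Cd200r1 ratio differs less, at 14.2 to 14.5 in AC CM and 15.3 to 18.4 in C CM.

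The genes of the PD-1 ligands lie next to each other on chromosome 19, 22823 bases apart, and differed widely in level. Cd274 (29367455 to 29388095, plus strand) was at 53.3, 50.9 and 55.8 CPM in AC CM and at 96.5, 98.0 and 106 CPM in C CM. No AC CM library reached the lowest C CM library, and Cd274 fell by 0.91 on the log2 scale (SE 0.07, edgeR adjusted p = 4.42e-05), the smallest adjusted p of the 10 genes. Pdcd1lg2 (29410919 to 29471157, plus strand) was counted 5, 0 and 9 times in the AC CM libraries and 16, 0 and 12 times in the C CM libraries (replicates 1, 2 and 3). Both groups thus held a library without a count, where 3 counts would correspond to 0.0388 CPM in AC CM replicate 2 and 0.0439 CPM in C CM replicate 2. The gene was not tested because of these low counts, and a planned ratio of Cd274 to Pdcd1lg2 could not be formed. In the authors' deposited table, which did test it, Pdcd1lg2 had a log2 fold change of -1.19 and an adjusted p of 0.790. A difference in Pdcd1lg2 was not detectable at this depth.

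Vsir encodes VISTA, a B7-family protein of myeloid cells that restrains T cells and acts both as ligand and as receptor. Vsir (chromosome 10, 60346851 to 60372684, plus strand) was at 201, 214 and 204 CPM in AC CM and at 335, 302 and 291 CPM in C CM. The groups did not overlap, and Vsir fell by 0.59 on the log2 scale (SE 0.07, edgeR adjusted p = 4.37e-04). Its span includes part of Cdh23 on the other strand, which had 242 counts over all 6 libraries, against 109109 for Vsir. Cd276 (B7-H3, chromosome 9, 58524298 to 58555437, minus strand), whose receptor on T cells is not settled, was at 8.54, 5.91 and 9.36 CPM in AC CM and at 9.78, 9.22 and 9.40 CPM in C CM. Gm10657, which overlaps it on the other strand, had 133 counts over the 6 libraries, against 3707 for Cd276. AC CM replicate 2 was the lowest library, the groups overlapped, and the log2 difference of -0.25 (SE 0.17) did not pass (edgeR adjusted p = 0.324). It was -0.08 without AC CM replicate 2, -0.39 without AC CM replicate 3 and -0.15 without both.

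The 3 receptors outside the B7 family moved in the other direction. Havcr2 (chromosome 11, 46454935 to 46481255, plus strand) was at 33.0, 33.0 and 30.5 CPM in AC CM and at 14.1, 19.3 and 18.7 CPM in C CM, a rise of 0.89 on the log2 scale (SE 0.13, edgeR adjusted p = 0.00114). C CM replicate 1 was the lowest library, and the log2 fold change was 0.76 without it. Cd200r1 (chromosome 16, 44765736 to 44794978, plus strand) was at 173, 180.1 and 175 CPM in AC CM and at 104, 128 and 121 CPM in C CM. It rose by 0.58 (log2, SE 0.08, edgeR adjusted p = 0.00101). Sirpa (chromosome 2, 129592835 to 129632228, plus strand) was at 2509, 2566 and 2509.9 CPM in AC CM and at 1923, 1959.5 and 1883 CPM in C CM. It rose by 0.40 (log2, SE 0.05, edgeR adjusted p = 6.49e-04). For none of the 3 receptors did the groups overlap. Without AC CM replicates 2 and 3, in which Alb was highest, the calls of Cd200r1 (0.56, edgeR adjusted p = 0.0602) and Sirpa (0.38, edgeR adjusted p = 0.109) were lost while their log2 fold changes kept their direction. The other 4 calls were kept in that fit, in which the spread of the single AC CM library is assumed to equal that within C CM.

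The ratio of Sirpa to Cd200r1 counts was taken within each library and was 14.5, 14.2 and 14.4 in AC CM and 18.4, 15.3 and 15.6 in C CM. The groups did not overlap, although AC CM 14.5 and C CM 15.3 lay close together. The difference of the log2 ratio was -0.19, with the smallest p the design allows (two-sided exact permutation test, p = 0.1). It was -0.11 without C CM replicate 1, the library with the highest ratio. Of the 75-base stretches of their GENCODE transcripts, 0.401% for Cd200r1 and 0% for Sirpa also occurred in transcripts of another gene.

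In all, the groups did not overlap for 6 of the 9 tested genes, against 44.7% of all genes tested, and these were the 6 genes that passed. The authors' deposited table called the same 6 genes among the 10, where 18.7% of the genes it tested were called. Its log2 fold changes were -1.04 for Cd86, -0.90 for Cd274, -0.58 for Vsir, 0.89 for Havcr2, 0.59 for Cd200r1 and 0.40 for Sirpa. In bulk RNA, fewer cells of a type and less RNA per cell cannot be told apart, which applies to each of these differences.

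**Figure D3:**
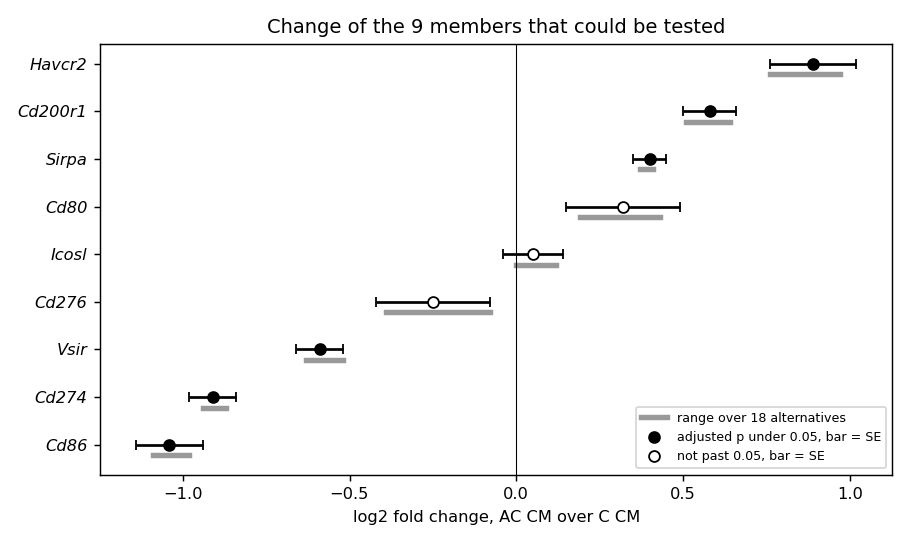
Log2 fold change of AC CM over C CM (x axis) for the 9 genes tested, as points with the SE as a bar, filled where the adjusted p is under 0.05. Grey lines give the range over 18 alternative analyses, in which the 6 called genes stay on their side of 0.

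Levels of the genes were compared per kilobase of merged exons. Sirpa was far above the others, at 515 ± 6.59 CPM per kilobase in AC CM and 391 ± 7.79 in C CM (SD, n = 3 each), higher than 99.6% of the genes tested. It held 75.4% to 82.8% of the summed CPM of the 10 genes in a library. Cd200r1 followed at 52.6 ± 1.07 in AC CM and 35.1 ± 3.59 in C CM, and Vsir at 41.1 ± 1.37 in AC CM and 61.7 ± 4.50 in C CM. The order of this pair differed between the groups: the lowest Cd200r1 value lay above the highest Vsir value in AC CM (51.8 against 42.7), while the highest Cd200r1 value lay below the lowest Vsir value in C CM (38.2 against 58.1). Cd274 came next at 14.7 ± 0.668 in AC CM and 27.7 ± 1.42 in C CM, all in CPM per kilobase. Havcr2 (11.8 ± 0.533 in AC CM, 6.38 ± 1.05 in C CM) and Cd86 (4.07 ± 0.184 in AC CM, 8.38 ± 0.672 in C CM) likewise stood in opposite order in the groups. Icosl was at 5.51 ± 0.0546 in AC CM and 5.31 ± 0.448 in C CM, where its range overlapped that of Havcr2. Cd80 (2.80 ± 0.452 in AC CM, 2.24 ± 0.337 in C CM) and Cd276 (2.17 ± 0.493 in AC CM, 2.59 ± 0.0770 in C CM) were neighbours whose ranges overlapped in AC CM but not in C CM. Pdcd1lg2 was last, at no more than 0.0576 in any AC CM library and 0.124 in any C CM library.

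Promoters are shown for the 3 called genes that had one: Cd274 and Vsir, which fell, and Havcr2, which rose. RefSeq promoters were matched for 7 of the 10 genes, and the called genes Cd86, Cd200r1 and Sirpa were without one. Each is the 250 bases before the RefSeq start in GRCm38.p6, 5′ to 3′ on the strand of the gene. Cd274 is at chr19:29367188-29367437 (plus strand), Vsir at chr10:60346601-60346850 (plus strand) and Havcr2 at chr11:46454681-46454930 (plus strand). Capitals mark matches, on either strand, to the motifs searched: AANNGAAA (IRF core), TGANTCA (AP-1) and GAGGAAGT (PU.1).
Cd274: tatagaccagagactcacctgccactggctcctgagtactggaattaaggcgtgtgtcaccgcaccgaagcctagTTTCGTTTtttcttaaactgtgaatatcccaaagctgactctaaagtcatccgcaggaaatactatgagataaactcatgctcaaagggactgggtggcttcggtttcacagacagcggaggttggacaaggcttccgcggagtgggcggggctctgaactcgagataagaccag
Vsir: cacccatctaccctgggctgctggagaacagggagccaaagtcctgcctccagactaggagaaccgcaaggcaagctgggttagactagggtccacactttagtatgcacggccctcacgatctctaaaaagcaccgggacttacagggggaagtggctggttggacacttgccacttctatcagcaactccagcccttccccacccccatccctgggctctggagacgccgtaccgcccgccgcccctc
Havcr2: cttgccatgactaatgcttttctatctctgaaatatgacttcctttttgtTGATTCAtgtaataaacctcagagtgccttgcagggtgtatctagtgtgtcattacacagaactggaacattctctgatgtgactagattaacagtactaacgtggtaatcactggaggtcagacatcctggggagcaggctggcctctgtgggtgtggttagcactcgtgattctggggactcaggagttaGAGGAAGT
The Cd274 window held 1 IRF core, on the minus strand at positions -175 to -168 from the start, a motif found in 21.3% of 32817 promoter windows of that length. No 2 matches overlapped. The Havcr2 window held an AP-1 match at -200 to -194, present in 6.75% of windows, and a PU.1 match at -8 to -1, present in 2.44%. The Vsir window held none of these letters. Among the genes that did not pass, the Cd80 window held 1 AP-1 match, at -42 to -36, and the Icosl and Cd276 windows none, while that of the untested Pdcd1lg2 held 1 IRF core, at -35 to -28. The G and C content was 50.4% for Cd274, 60.4% for Vsir and 44.8% for Havcr2, against 77.6% for Cd276 and 68.8% for Icosl.

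Genes that work with these proteins were taken from lists chosen by function. A list of 11 genes held others of the B7 and CD28 family, with Tnfrsf14, a TNF receptor family gene, as the partner of Btla. Of these 6 could be tested, of which 2 fell and 4 did not pass, with a median log2 fold change of -1.29. That median rests largely on low genes. Among those that did not pass, Icos was at 0.186 ± 0.144 CPM in AC CM and 0.795 ± 0.383 CPM in C CM. Btnl2 (0.259 ± 0.194 CPM in AC CM, 0.694 ± 0.274 CPM in C CM) and Ildr2 (0.484 ± 0.216 CPM in AC CM, 0.799 ± 0.207 CPM in C CM) were low too. Tnfrsf14 (HVEM), the receptor for BTLA and LIGHT, fell by 1.16 (SE 0.12) to 15.1 ± 2.16 CPM in AC CM, against 33.5 ± 1.28 CPM in C CM. Btla, the inhibitory receptor that binds HVEM, fell by 1.62 (SE 0.50, edgeR adjusted p = 0.0409) but was low, at 0.435 ± 0.201 CPM in AC CM and 1.34 ± 0.662 CPM in C CM. Of 9 TNF-family genes of costimulation, 7 were tested, 2 rose, 2 fell and 3 did not pass, with a median of -0.10. Tnfsf9, the ligand of 4-1BB, rose to 7.71 ± 0.665 CPM in AC CM, against 1.31 ± 0.252 CPM in C CM. Cd40, through which T cells signal to the macrophage, fell to 5.68 ± 0.363 CPM in AC CM, against 10.9 ± 0.650 CPM in C CM. Tnfsf14 (LIGHT), a ligand of HVEM, fell by 0.92 (log2, SE 0.20).

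The list of partners and relatives of CD200R1 and SIRP alpha did not follow the 2 receptors as a group. It held the ligand genes Cd47 and Cd200, then Thbs1, and otherwise genes of related receptors. Among its 9 genes, 1 rose and 3 fell while 5 did not pass, and the median was -0.19. The 1 that rose and 1 of the 3 that fell were related receptors, not partners. Cd47 was at 311 ± 14.9 CPM in AC CM and 312 ± 17.7 CPM in C CM (log2 difference -0.01, SE 0.07, edgeR adjusted p = 0.958). Cd200 fell by 0.78 (SE 0.14), with 5.53 ± 0.542 CPM in AC CM and 9.52 ± 0.986 CPM in C CM. Thbs1, whose product thrombospondin-1 also binds CD47, fell by 0.39 (SE 0.05) on the log2 scale. Cd200r4, a relative of Cd200r1 that is known as an activating receptor, rose by 0.70 (SE 0.11) to 28.2 ± 1.42 CPM in AC CM, against 17.4 ± 1.84 CPM in C CM, and 2.45% of its 75-base stretches also occurred in Cd200r1 or Cd200r2.

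Among 15 adaptor and trafficking genes, 4 rose and 2 fell while 9 did not pass, and the median was 0.02. Dok2, the adaptor through which CD200R1 signals, rose by 1.01 (SE 0.11, edgeR adjusted p = 2.70e-04) with 87.1, 85.1 and 91.1 CPM in AC CM and 49.0, 45.9 and 36.1 CPM in C CM. Its groups did not overlap. Its relative Dok1 was at 68.1 ± 2.58 CPM in AC CM and 69.0 ± 9.02 CPM in C CM and did not pass. The phosphatase genes Ptpn6 (306 ± 10.8 CPM in AC CM, 309 ± 26.6 CPM in C CM) and Ptpn11 (141 ± 6.22 CPM in AC CM, 138 ± 2.72 CPM in C CM), whose products SHP-1 and SHP-2 bind the tail of SIRP alpha, did not pass either. Cmtm6, which keeps PD-L1 on the cell surface, fell by 0.39 (SE 0.06) to 174 ± 4.60 CPM in AC CM, against 227 ± 3.46 CPM in C CM. Marchf1, a ubiquitin ligase that removes CD86 and MHC class II from the surface, fell by 0.70 (SE 0.11), with 67.7 ± 2.61 CPM in AC CM and 109.7 ± 17.1 CPM in C CM.

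Of 10 other ligands and adhesion partners of checkpoints, 9 were tested, 1 rose, 5 fell and 3 did not pass, with a median of -0.42. Lgals9, which encodes the TIM-3 ligand galectin-9, was at 256 ± 6.96 CPM in AC CM and 243 ± 7.86 CPM in C CM (log2 difference 0.08, SE 0.06, edgeR adjusted p = 0.401). Timd4, the phosphatidylserine receptor TIM-4, fell to 0.647 ± 0.163 CPM in AC CM, against 3.86 ± 0.811 CPM in C CM. The adhesion molecule gene Icam1 fell by 0.88 (SE 0.08) and Nectin2, 1 of the ligands of the TIGIT and DNAM-1 receptors, by 0.76 (SE 0.10). The 1 gene of this list that rose was Pvr, which encodes another of these ligands. It rose by 0.59 (log2, SE 0.11) to 32.7 ± 0.873 CPM in AC CM, against 21.8 ± 2.89 CPM in C CM. Of 8 other receptors with inhibitory tails, Lilrb4a rose, 4 fell and 3 did not pass, with a median of -0.16. Lilrb4a rose 3.01-fold to 725 ± 16.3 CPM in AC CM, against 241 ± 44.1 CPM in C CM, but 39.8% of its 75-base stretches also occurred in transcripts of other genes, so its value is uncertain. Fcgr2b, the inhibitory Fc receptor, fell by 0.61 (SE 0.08), and Cd300a by 0.44 (SE 0.06).

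**Figure D4:**
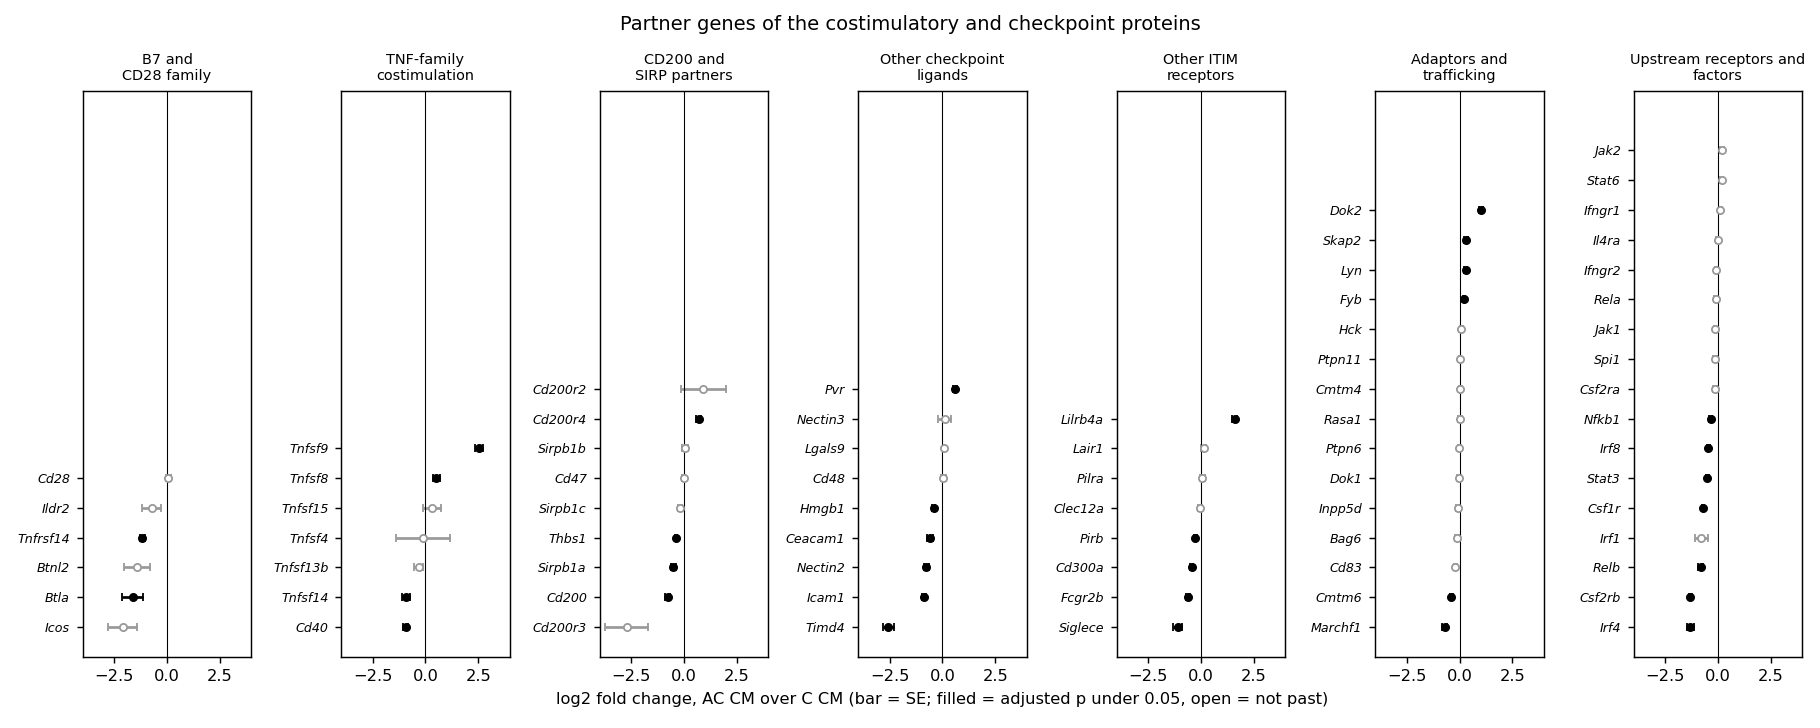
Log2 fold change of AC CM over C CM (x axis, SE as bar) for the tested genes of the 7 partner lists, 1 panel a list, filled where the adjusted p is under 0.05. In the list of upstream receptors and factors 7 of 17 genes fell, and Tnfsf9 (2.56), Lilrb4a (1.59) and Dok2 (1.01) lie farthest to the right among the filled points.

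Among 17 genes of receptors, kinases and transcription factors listed as upstream, 7 fell and 10 did not pass, and the median was -0.15. Of all genes tested, 13.3% fell. An action of the listed genes on the 10 genes was not tested. Irf1, a direct activator of Cd274, was at 57.9 ± 11.3 CPM in AC CM and 100.3 ± 38.1 CPM in C CM and did not pass (log2 difference -0.79, SE 0.30, edgeR adjusted p = 0.116). Irf8 fell by 0.46 (SE 0.08) and Irf4 by 1.31 (SE 0.15). Csf2rb, the shared beta chain of the GM-CSF, IL-3 and IL-5 receptors, fell by 1.31 (SE 0.06), with 104, 106 and 103 CPM in AC CM and 266, 261 and 249.9 CPM in C CM. The M-CSF receptor gene Csf1r fell by 0.72 (SE 0.06).

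Marker genes of other blood and marrow cells also moved. Of 12 dendritic cell markers 11 were tested, 8 fell and 3 did not pass, and the summed level of the list was 71.6 to 94.8 CPM in AC CM and 157 to 194 CPM in C CM. Fscn1, at 68.5, 51.8 and 76.5 CPM in AC CM and 127, 76.7 and 94.3 CPM in C CM, and Itgax, at 13.2, 13.1 and 11.7 CPM in AC CM and 41.8, 57.2 and 46.6 CPM in C CM, made up most of that sum in every library. Itgax fell by 1.94 on the log2 scale (SE 0.13), while Fscn1 did not pass (log2 difference -0.60, SE 0.22, edgeR adjusted p = 0.0955). Flt3, the receptor that dendritic cell growth depends on, was at 0, 0.0517 and 0.226 CPM in AC CM and at 0.991, 0.365 and 1.46 CPM in C CM. Of 7 B cell markers 5 were tested and 5 fell, with summed levels of 9.44 to 9.76 CPM in AC CM and 24.3 to 30.1 CPM in C CM. Cd79b made up most of these sums, at 8.52 to 8.75 CPM in AC CM and 18.2 to 23.2 CPM in C CM. Of 6 monocyte markers 4 fell and 2 did not pass, with sums of 298 to 339 CPM in AC CM and 658 to 809.7 CPM in C CM. Of 10 neutrophil markers 9 were tested, 8 fell and 1 did not pass, with sums of 169 to 186 CPM in AC CM and 825 to 959 CPM in C CM. S100a9, Ngp and S100a8 made up most of these sums in every library. Ly6g, at most 0.0905 CPM in AC CM and 0.307 CPM in C CM, was too low to be tested. Retnlg, which did not pass, was at 0.336 ± 0.168 CPM in AC CM and 0.379 ± 0.0753 CPM in C CM. Of 8 T and NK cell markers 6 were tested and 6 fell, with sums of 1.24 to 2.23 CPM in AC CM and 7.08 to 8.76 CPM in C CM. Of 5 mast cell and basophil markers 4 were tested, 2 fell and 2 did not pass, with sums of 3.63 to 4.74 CPM in AC CM and 14.4 to 17.0 CPM in C CM, and Fcer1a was at 0 throughout. Kit made up most of these sums, at 2.62 to 3.47 CPM in AC CM and 12.3 to 14.3 CPM in C CM. The 2 that did not pass were Cpa3 and Mcpt8. The share of these cells in the differences of Cd86, Cd274 and Vsir was not tested.

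Of 12 macrophage markers 4 fell and 8 did not pass, with a median log2 fold change of -0.17 and sums of 22762 to 23616 CPM in AC CM and 25322 to 26725 CPM in C CM. Of 7 chondrocyte markers 5 were tested and 5 did not pass, with sums of 47.9 to 51.6 CPM in AC CM and 39.7 to 49.8 CPM in C CM. Of 5 fibroblast markers 4 fell and 1 did not pass, with sums of 3190.2 to 3286 CPM in AC CM and 3974 to 5015 CPM in C CM. Of 10 hepatocyte markers 1 rose, 1 fell and 8 did not pass, with a median log2 fold change of 5.05 and sums of 351, 918 and 1710.5 CPM in AC CM and 595, 535 and 516 CPM in C CM (replicates 1, 2 and 3). Trf (transferrin), the marker that fell, held most of the C CM sums, at 304, 349 and 406 CPM in AC CM and 552, 534 and 515 CPM in C CM. Without Trf, a choice made after its values were seen, the sums were 47.2, 569 and 1304 CPM in AC CM and 42.4, 1.62 and 0.478 CPM in C CM, and all 9 markers had a log2 fold change above 0. Without AC CM replicates 2 and 3 the log2 fold change was -1.04 for Cd86, -0.92 for Cd274, -0.63 for Vsir, 0.92 for Havcr2, 0.56 for Cd200r1 and 0.38 for Sirpa. The part of the hepatocyte RNA in these differences was not tested.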

How the data were processed

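The table that the authors deposited gives raw read counts per gene. Its values are whole numbers, and the totals differ between samples. It also holds a deposited signal per gene and sample, which is the count over a sample constant and was left unused. The log2 fold changes and p-values in it are the authors' own comparison and were only read. The submitters' processing notes name R (3.4.3), HISAT2 (2.1.0), fastp (0.17.1) and DESeq2 (1.18.1) without saying what each did. For the read counter, its use of strand, the build and the annotation, the answer is: not given in the sources used here. The table's own coordinates are printed, which for 95.2% of matched gene identifiers equal those of GENCODE release M21 (GRCm38).

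Low genes were removed with filterByExpr. The rest were TMM-scaled and compared with edgeR (4.0.16, R 4.3.3) by its quasi-likelihood test with robust settings, without covariates, and p-values were adjusted over all genes tested (Benjamini-Hochberg). CPM use the TMM-scaled library sizes, fold changes are ratios of mean CPM, and ± gives the SD over n = 3. Levels per kilobase use merged GENCODE exons. The alternatives were DESeq2 (1.42.0), limma-voom (3.58.1), other scalings and filters, left-out libraries and a replicate block. Between 696 and 814 genes per library had a count of 4, but only 394 to 446 a count of 3, so counts may overstate independent fragments, and floors cover counting error only.

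The members and lists were chosen with earlier results of these data known. The text names the 10 genes, then Cd40, Tnfsf9, Cd47, Cd200, Lgals9, Irf1, Irf8 and Csf1r, and in each list up to 3 genes past the threshold, those with the smallest p. Dok1, Ptpn6, Ptpn11, Pvr, Icos, Btnl2, Ildr2, Cd28, Ctla4, Pdcd1, Xist and Ddx3y were picked with values in view. So were the motifs and the marker genes given by name (Trf, Itgax and Fscn1 among them). One gene of the list of upstream factors is not reported here. The symbol of Marchf1 was restored from its gene identifier. Python 3.11.15 served for tables and, with matplotlib 3.10.9, for figures.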

Additional observations from a re-analysis of the deposited data

How the results depend on the processing

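Over 18 alternatives, 160 of the values of the 9 tested genes kept their direction and their side of the threshold, and 2 kept their direction but lost the call, those of Cd200r1 and Sirpa without AC CM replicates 2 and 3. That fit called 4 of the genes, each other alternative 6. The count over all genes was 3158 to 5023 with 1 library left out (4741 with all), lowest without AC CM replicate 3, and 1274 without AC CM replicates 2 and 3 in a fit with fewer samples. With genes on X and Y left out, an alternative added after the data were seen, it was 4612. With the replicate block it was 4397, and 6 genes of the set were called. Libraries with the same number did not deviate together (correlations -0.116, -0.031 and -0.014), so the numbers were not taken as pairs. The log2 ratio of Cd86 to Cd80 differed by -1.46 to -1.27 and that of Sirpa to Cd200r1 by -0.24 to -0.11 (without C CM replicate 1) with 1 library left out. Depth limits Pdcd1lg2, with 14 counts in AC CM and 28 in C CM.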

Other observations

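Cd28, which encodes the T cell receptor for CD80 and CD86, was at 81.5, 83.9 and 84.5 CPM in AC CM and at 66.7, 88.1 and 83.6 CPM in C CM, and the groups overlapped (log2 difference 0.07, SE 0.10, edgeR adjusted p = 0.676). Per kilobase of merged exons it was at 13.3, 13.7 and 13.8 CPM in AC CM and at 10.9, 14.4 and 13.7 CPM in C CM, above Cd80 and Cd86 in both groups and higher than 79.2% of the genes tested. The T cell genes Cd3d (0 to 0.0517 CPM in AC CM, 0.224 to 0.541 CPM in C CM) and Cd3e (0 to 0.142 CPM in AC CM, 0 to 0.198 CPM in C CM) were near 0 in the same libraries. No other gene of the table overlaps Cd28, and 0 of its 75-base stretches occurred in another gene's transcripts. The genes of the inhibitory receptors Ctla4 and Pdcd1 had no count in any AC CM library and at most 0.0610 and 0.119 CPM in a C CM library.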
